A study of Mus musculus with 10 samples.

Results

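The promoters described here belong to 9 genes of the pluripotency network: Pou5f1, Klf4, Klf2, Nanog, Esrrb, Tfcp2l1, Prdm14, Sall4 and Lin28a. They were measured in eggs of C57BL6/129 mice at metaphase II (MII), the stage at which a mature oocyte waits for fertilisation. A promoter window is a stretch of 2000 bp centred on an annotated transcript start, and a window was taken as a member when its centre lay within 200 bp of an mm10 start of one of the 9 genes. This gave 13 windows, all listed for all 3 groups, out of 40537 nuclear windows shared by the 3 groups. Pou5f1, Klf4, Klf2, Tfcp2l1, Prdm14 and Lin28a had 1 window each, Esrrb and Sall4 had 2 each and Nanog had 3.

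There were 10 libraries. The 2-month wild-type (WT) group had 4, the 11-month WT group 3 and the 2-month Tet2 knockout (Tet2KO) group 3. Tet2 is an enzyme that oxidises methylated cytosine, a step towards its removal. The labels used here give neither the kind of knockout allele nor the number of animals behind a library. The series design gives 10 oocytes per sample, whereas the extraction protocol speaks of a single oocyte. The deposited values are pooled over the libraries of a group, so each group gives 1 value per window, and without replicate values no p-value is given.

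In embryonic stem cells and in the early embryo, Pou5f1 (Oct4) and Nanog act with Sox2 as the core of the network that holds cells in a pluripotent state. Klf2, Klf4, Esrrb and Tfcp2l1 sustain the naive form of that state, and Prdm14 helps to keep DNA methylation low there. In most somatic tissues Pou5f1 is silent and its promoter is methylated. In the mouse oocyte, methylation is laid down during growth mainly across transcribed gene bodies, while most CpG-rich promoters stay unmethylated. The 2-month WT table was compared with the other 2 to ask how promoter methylation differs with maternal age and with loss of Tet2.

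Methylation was called at CpG sites, cytosines followed by a guanine, so the number and spacing of CpGs set how much of a promoter can be read. The RefSeq bases just before the transcript start are shown for the 3 genes whose level differed between pools, Pou5f1, Klf4 and Klf2, and for Nanog and Tfcp2l1, whose level did not differ beyond counting error. Each line gives 250 bases, 5′ to 3′ on the strand of the gene, ending at the base before the start, with CpG sites in capitals. On GRCm38.p6, the build that mm10 represents, they lie at chr17:35505782-35506031 (plus strand), chr4:55532476-55532725 (minus), chr8:72318812-72319061 (plus), chr6:122707239-122707488 (plus) and chr1:118627695-118627944 (plus).
Pou5f1: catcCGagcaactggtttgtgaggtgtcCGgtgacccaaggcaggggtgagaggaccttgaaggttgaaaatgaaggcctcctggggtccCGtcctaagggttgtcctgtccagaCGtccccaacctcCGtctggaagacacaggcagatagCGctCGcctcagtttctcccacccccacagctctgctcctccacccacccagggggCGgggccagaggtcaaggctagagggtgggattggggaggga
Klf4: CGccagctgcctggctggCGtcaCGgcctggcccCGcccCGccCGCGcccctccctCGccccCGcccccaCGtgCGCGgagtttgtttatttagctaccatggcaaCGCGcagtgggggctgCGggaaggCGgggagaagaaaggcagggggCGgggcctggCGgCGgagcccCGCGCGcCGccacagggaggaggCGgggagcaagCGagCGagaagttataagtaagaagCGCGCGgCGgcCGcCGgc
Klf2: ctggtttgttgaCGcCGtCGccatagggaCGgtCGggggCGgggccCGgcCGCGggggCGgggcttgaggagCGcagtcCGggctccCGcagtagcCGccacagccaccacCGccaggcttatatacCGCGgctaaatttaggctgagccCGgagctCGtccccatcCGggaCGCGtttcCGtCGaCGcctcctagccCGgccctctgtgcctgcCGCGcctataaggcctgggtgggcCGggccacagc
Nanog: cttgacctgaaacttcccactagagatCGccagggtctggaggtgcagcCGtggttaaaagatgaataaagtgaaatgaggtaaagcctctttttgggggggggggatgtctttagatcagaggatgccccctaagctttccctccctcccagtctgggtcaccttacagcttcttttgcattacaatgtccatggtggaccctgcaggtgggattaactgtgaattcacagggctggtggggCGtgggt
Tfcp2l1: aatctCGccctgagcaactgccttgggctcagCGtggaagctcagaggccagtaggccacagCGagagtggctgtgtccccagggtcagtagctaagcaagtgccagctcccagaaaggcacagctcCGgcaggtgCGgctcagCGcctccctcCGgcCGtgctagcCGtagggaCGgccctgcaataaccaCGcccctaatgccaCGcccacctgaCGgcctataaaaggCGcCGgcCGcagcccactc

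The Klf4 and Klf2 stretches are dense in CpG and the Nanog stretch is nearly without. Klf4 has 32 CpG sites in the 250 bases and Klf2 has 29, and 4.59% and 6.78% of 32841 mouse promoter stretches hold as many or more. Tfcp2l1 has 16, Pou5f1 has 8 and the Nanog stretch has 3, against a median of 6 over all stretches. Lin28a has 7, and the Esrrb starts have 6 and 3. The 3 promoters that differed between pools thus span the range from CpG-dense to average. RefSeq promoter sequence was matched for 7 of the 9 genes, and Prdm14 and Sall4 were not matched.

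Short motifs were counted on both strands of the same 250 bases. The GC box, GGGCGG, has 4 matches at Klf4, 2 at Klf2 and 1 at Pou5f1, and 32.7% of all stretches hold at least 1. It has none at Nanog, Esrrb, Tfcp2l1 or Lin28a. CACCC, the core of sites bound by Klf proteins, has 5 matches at the first Pou5f1 start, 1 at Klf2, 2 at Lin28a, 2 and 1 at the Esrrb starts and 3 at the second Nanog start. It has none at Klf4, Tfcp2l1, the first Nanog start or the second Pou5f1 start, and 52.0% of stretches hold it. TATAA has 2 matches each at Klf4 and Klf2 and 1 at Tfcp2l1, against 22.8% of stretches with a match. The 2 at Klf4 overlap in a single stretch, ttataa, with 1 on each strand, while those at Klf2 lie apart. The octamer ATGCAAAT, read by POU-domain proteins, has no exact match in any of these stretches and is held by 1.60% of all. Copies that differ from it at any base were not counted, and the Nanog stretch holds ttttgcat where the reverse complement is ATTTGCAT. A match is a description of the letters and does not show that a factor binds.

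Levels were computed as 100 times methylated CpG calls over all CpG calls in a window, and are called call shares. The deposited fraction, which averages the methylated share over covered CpG positions so that each position counts alike, is given beside them. Wilson 95% intervals for levels and Newcombe 95% intervals for differences cover counting error only. Bisulfite leaves hydroxymethylcytosine, which Tet enzymes make from methylcytosine, unconverted too, so every level counts these forms together. The spread between libraries is not in the intervals, and neither PCR copies nor neighbouring CpGs read on 1 molecule give independent calls.

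The member windows were covered by 42 to 461 calls in 2-month WT (median 124), 81 to 917 in 11-month WT (median 386) and 25 to 281 in Tet2KO (median 72). Over all shared windows the median was 131, 245 and 79 calls. As a check of the labelled cell type, 10 of 12 measured maternally methylated imprint genes, whose marks are laid down in the growing oocyte, were at 50% or more in each pool, with medians of 96.1%, 95.5% and 94.0% over the 12 in 2-month WT, 11-month WT and Tet2KO. The exceptions were Inpp5f, at 1.04%, 0.424% and 0.658%, and Grb10, at 2.38%, 2.33% and 1.49%. The 3 paternally methylated genes, whose marks somatic cells carry on 1 allele, had medians of 4.21%, 2.33% and 2.22%. H19 was at 4.21%, 1.61% and 2.5% in that order, Rasgrf1 at 0%, 2.33% and 0%, and Meg3 at 23.4%, 6.67% and 2.22%. The deposited fraction at Meg3 was 37.6%, 8.56% and 1.85%. Each imprinted gene was read at 1 of its windows, which need not cover the imprint mark. Whether a pool held somatic DNA was not tested. Cumulus and granulosa genes had medians of 8.82%, 2.34% and 2.46% (6 genes). Of these, Amh was high in all 3 pools, at 97.5%, 94.0% and 93.3%. Ptx3 was at 20.4%, 1.93% and 0%, and Foxl2 at 2.59%, 1.25% and 1.58%. Has2 was at 7.14% (14 calls), 0% (151 calls) and 0% (44 calls), and Fshr at 6.67% (15 calls), 2.74% and 3.33%. Lhcgr had its highest level in Tet2KO, at 10.5%, 15.8% and 28.1%. The Tet2 window with the most calls was at 14.0% (214 calls), 7.12% (969 calls) and 2.87% (349 calls) in the same order. This level is no check of the genotype, since a promoter can be read whether or not the gene is disrupted.

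Pluripotency factor promoters were almost unmethylated in 11-month WT and Tet2KO oocytes, and in 2-month WT 3 of the 9 genes, Pou5f1, Klf4 and Klf2, carried methylated calls above that level. All 13 windows were under 5% in 11-month WT (1.20% to 3.08%) and in Tet2KO (0% to 3.57%). In 2-month WT 10 of 13 were under 5%, and Pou5f1 stood at 30%, Klf4 at 10.9% and Klf2 at 7.59%. Among all shared windows, 58.9% were under 5% in the 2-month WT pool, 64.2% in the 11-month WT pool and 65.2% in Tet2KO. The median member was at 2.38% in the 2-month WT pool, 1.85% in the 11-month WT pool and 1.33% in Tet2KO, against 3.23%, 2.72% and 2.17% over all shared windows.

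**Figure D1:**
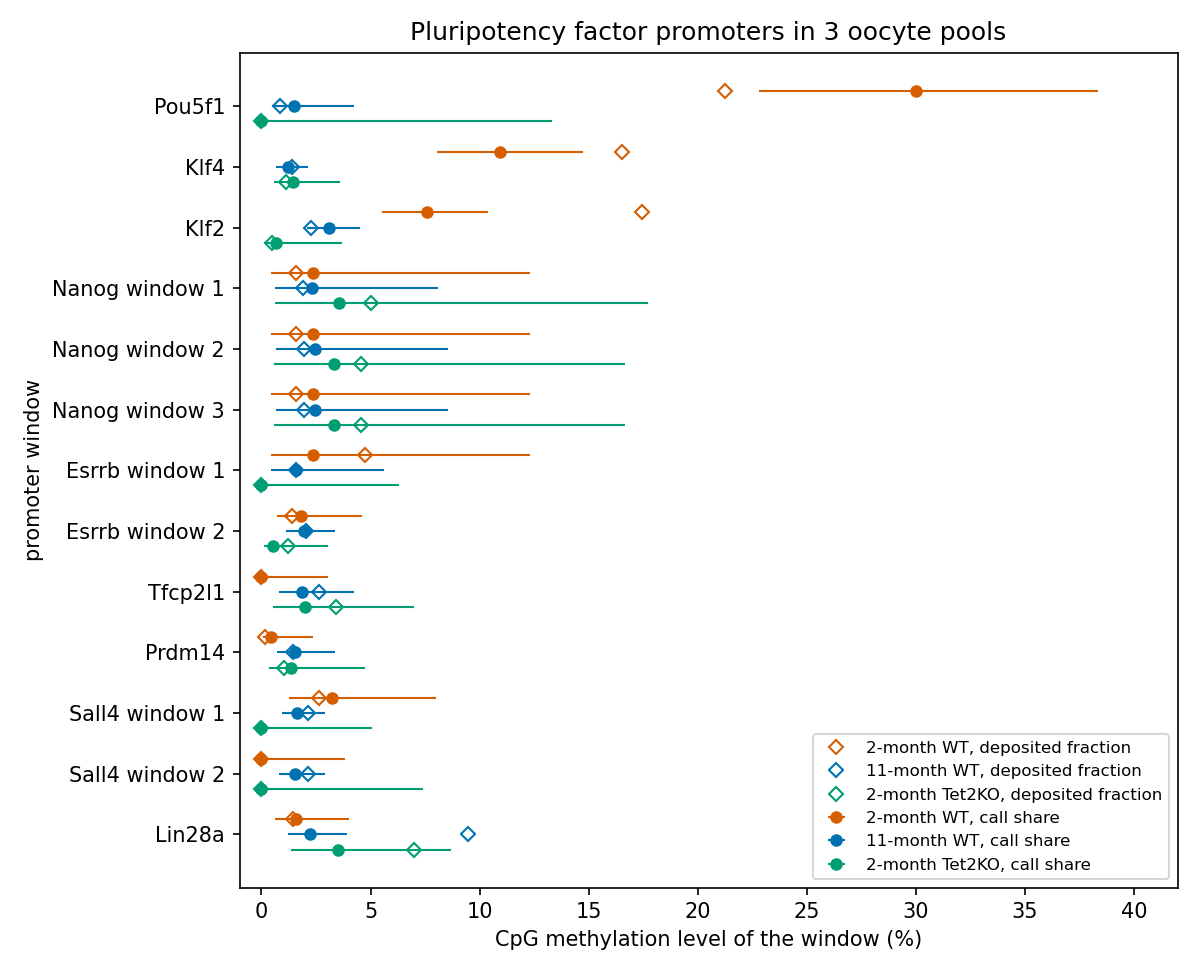
Methylation level (x axis, %) of the 13 promoter windows (y axis) in the 3 pools; filled circles are call shares with Wilson 95% intervals of counting error and open diamonds are the deposited fractions. The 2-month WT values of Pou5f1 (30%), Klf4 (10.9%) and Klf2 (7.59%) lie apart from the values of the other pools, and all other call shares lie under 5%.

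Pou5f1 encodes the POU-domain transcription factor Oct4, which is required for the inner cell mass. Its window (chr17:35505018-35507017) takes in the start of the gene (35506032 to 35510777), so it covers the proximal promoter printed above and the first bases of the transcribed part. In 2-month WT 39 of 130 calls were methylated, a level of 30% (Wilson interval 22.8 to 38.4) with a deposited fraction of 21.2%. In 11-month WT 3 of 204 calls were methylated, 1.47% (0.501 to 4.23), with a deposited fraction of 0.857%. In Tet2KO 0 of 25 calls were methylated, which allows a level of up to 12.0%. The 2-month WT interval did not overlap those of the other pools, which overlapped each other.

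The level at Pou5f1 was lower in 11-month than in 2-month WT, with a difference of -28.5 points (Newcombe interval -36.9 to -20.8). In Tet2KO it differed from 2-month WT by -30 points (-38.4 to -14.9). These differences share the 2-month WT pool, so they are not separate evidence. The median of the paternally methylated genes was highest in the 2-month WT pool, and so was that of the cumulus and granulosa genes. No direction was set in advance for the cumulus and granulosa list, so its level is no measure of somatic DNA. Lhcgr was highest in Tet2KO and Rasgrf1 in 11-month WT, and the other measured genes of both lists were highest in 2-month WT. The share of all shared windows with that order was not counted. Intervals of both differences lay below 0 at Ptx3 and Meg3 only. Over all shared windows the interval lay below 0 at 16.3% for age and at 13.2% for Tet2KO. Ptx3 differed by -18.5 points for age (-25.5 to -12.7) and by -20.4 points for Tet2KO (-27.4 to -12.8). Meg3 differed by -16.7 (-26.2 to -6.70) and -21.1 points (-30.2 to -9.46). The part of these genes in the result was not tested. Differences as low as those of Pou5f1, or lower, were found at 1.37% of all shared windows for age and at 1.45% for Tet2KO. By the deposited fraction the Pou5f1 differences were -20.4 and -21.2 points. Only 18 CpG positions were covered in Tet2KO, against 36 in 2-month WT and 43 in 11-month WT, and the tables do not say which positions these were.

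A further window inside Pou5f1 behaved differently. It is centred 4534 bp downstream of the first, near the far end of the gene (chr17:35509552-35511551), on a transcript start that RefSeq does not place within 200 bp, so it is not one of the 13. Its level was 95.2% (42 calls) in 2-month WT, 100% (63 calls) in 11-month WT and 95.7% (23 calls) in Tet2KO. Thus the stretch at the far end of the gene was methylated in all 3 pools, while the promoter was at 30% in 2-month WT and lower in the other pools. The second RefSeq start of Pou5f1 has no window.

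Klf4 and Klf2 encode zinc-finger factors of the Krüppel-like family that bind CACCC-type sites and, with Pou5f1, keep naive pluripotency genes active. At Klf4 (chr4:55531467-55533466) 37 of 338 calls were methylated in 2-month WT, 10.9% (8.05 to 14.7). The level was 1.20% (917 calls) in 11-month WT (0.671 to 2.14) and 1.42% (281 calls) in Tet2KO (0.555 to 3.60). The 2-month WT pool was thus the high one here as at Pou5f1, with no overlap of its interval with the others. Deposited fractions were 16.5%, 1.42% and 1.14% in that order.

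The Klf4 difference was -9.75 points for age (-13.6 to -6.70) and -9.52 points for Tet2KO (-13.4 to -5.90), short of the 20 points used as a threshold. By the deposited fraction these differences were -15.1 and -15.4 points. As low a difference, or a lower one, by call share was found at 7.99% of all shared windows for age and 9.41% for Tet2KO.

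At Klf2 (chr8:72318033-72320032) 35 of 461 calls were methylated in 2-month WT, 7.59% (5.51 to 10.4). The level was 3.08% (811 calls) in 11-month WT (2.10 to 4.51) and 0.667% (150 calls) in Tet2KO (0.118 to 3.68). The order was 2-month WT, then 11-month WT, then Tet2KO, and the last pair did not differ beyond counting error (difference -2.42 points, -3.95 to 0.754). The difference from 2-month WT was -4.51 points for age (-7.46 to -1.98) and -6.93 points for Tet2KO (-9.76 to -3.26). Differences as low or lower were found at 17.3% and 13.2% of all shared windows.

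The deposited fraction widened the Klf2 contrast more than that of any other of the 13 windows. It was 17.5% in the 2-month WT pool, 2.26% in the 11-month WT pool and 0.505% in Tet2KO, with differences of -15.2 and -17.0 points. Since the fraction weights every covered position alike, a fraction above the call share means that methylated positions were read less often than unmethylated ones. At Pou5f1 the fraction was below the call share, so methylated positions were there read more often.

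The fraction and the call counts together bound how many CpG positions carried a methylated call. In 2-month WT at least 26 and at most 35 of 147 covered positions did so at Klf2, and at least 22 and at most 37 of 129 at Klf4. At Pou5f1 the bounds were 8 and 36 of 36 positions. The methylated calls of these windows were thus spread over many CpGs and were not those of a single site. In 11-month WT the bounds were 4 to 25 of 151 positions at Klf2, 3 to 11 of 178 at Klf4 and 1 to 3 of 43 at Pou5f1. In Tet2KO they were 1 of 99 at Klf2, 2 to 4 of 132 at Klf4 and 0 of 18 at Pou5f1. More calls per position give more chances of a methylated call, and there were 3.14, 5.37 and 1.52 calls per position at Klf2 in 2-month WT, 11-month WT and Tet2KO.

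**Figure D2:**
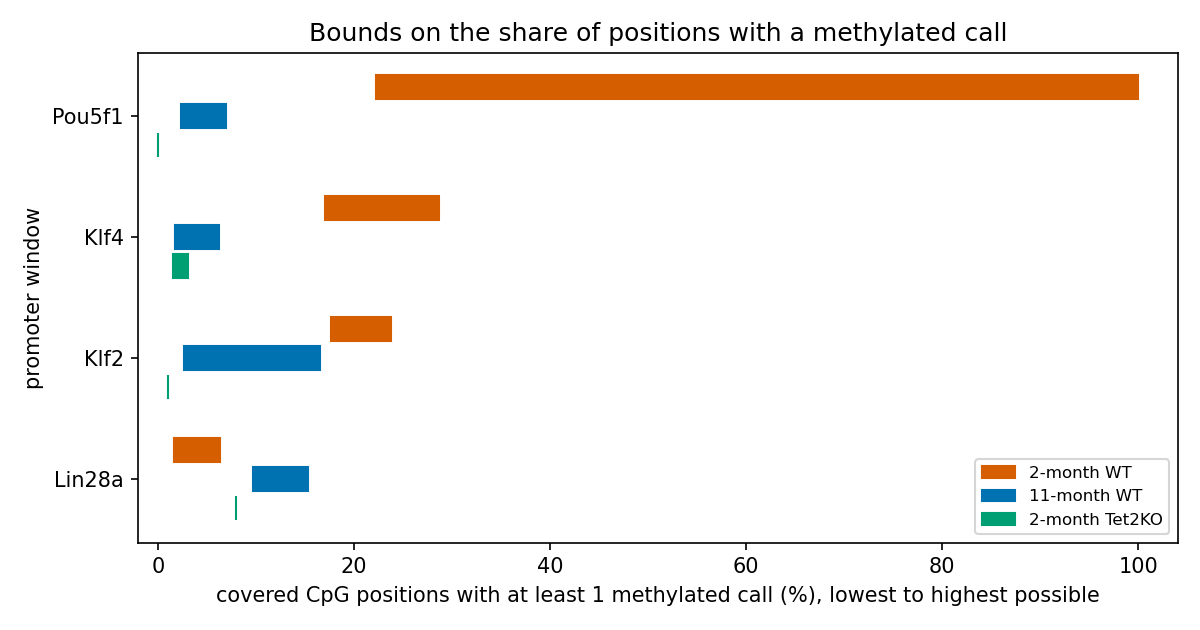
Lowest to highest possible share of covered CpG positions with at least 1 methylated call (x axis, %) for 4 promoter windows (y axis) in the 3 pools, as bars between the bounds; a thin line means that the bounds coincide. In 2-month WT the bars of Pou5f1, Klf4 and Klf2 lie above those of the other pools (8 to 36 of 36, 22 to 37 of 129 and 26 to 35 of 147 positions), and at Lin28a the 11-month WT bar (7 to 11 of 72) lies highest.

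Nanog, the homeobox factor that gives the ground state its stability, was low in all pools. Its 3 windows have centres within 79 bp, and the outer ones share 96.0% of their length, so they rest on nearly the same calls. The first (chr6:122706489-122708488) was at 2.38% (42 calls) in 2-month WT, 2.33% (86 calls) in 11-month WT and 3.57% (28 calls) in Tet2KO. In each pool this rested on 1 or 2 methylated calls. Its differences from 2-month WT were -0.055 points for age (-10.1 to 6.03) and 1.19 points for Tet2KO (-9.17 to 15.5), so a difference of several points would not have been detectable at this depth. Gdf3 and Dppa3, which lie upstream of Nanog on chromosome 6, were at 3.12% and 5.13% in 2-month WT, 2.08% and 1.82% in 11-month WT, and 0% in Tet2KO at both. These zeros rest on 27 calls at Gdf3 and 45 at Dppa3, which allow up to 11.1% and 6.67%. The Newcombe intervals of all differences of Gdf3 and Dppa3 included 0.

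Sall4, a zinc-finger factor that acts with Pou5f1 and Nanog, was low as well. Its windows (chr2:168766030-168768029 and 168766202 to 168768201) share 91.4% of their length. The first was at 3.23% (124 calls) in 2-month WT, 1.65% (667 calls) in 11-month WT and 0% (72 calls) in Tet2KO, the last allowing up to 4.17%. The second was at 0% (96 calls), 1.56% (578 calls) and 0% (48 calls), with upper limits of 3.12% and 6.25% at the zeros. All 4 methylated calls of the first window in 2-month WT therefore lay in the 172 bases that the second does not cover. These bases lie inside the gene, since Sall4 spans 168748332 to 168767201 and the windows sit at its upper end. The window of the lncRNA gene Gm14261 (chr2:168765143-168767142), centred 887 bp from the first Sall4 window, overlaps it and shares calls with it. The Gm14261 window was at 2.19% (320 calls) in 2-month WT, 2.80% (820 calls) in 11-month WT and 1.16% (173 calls) in Tet2KO. The Newcombe intervals of all Sall4 differences included 0.

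Esrrb, an orphan nuclear receptor, has 2 separate promoters 60527 bp apart, and neither carried more than a few methylated calls. The upstream one (chr12:86360117-86362116) was at 2.38% (42 calls) in 2-month WT, 1.59% (126 calls) in 11-month WT and 0% (57 calls) in Tet2KO, the last allowing up to 5.26%. The internal one (chr12:86420644-86422643) was at 1.83% (219 calls), 1.95% (614 calls) and 0.546% (183 calls). The promoters of this gene did not differ between pools beyond counting error, with Tet2KO differences of -2.38 (-12.3 to 4.23) and -1.28 points (-4.09 to 1.44). The lncRNA gene Gm40483 ends or starts 56 bp from the centre of the upstream window, so its calls are shared with that gene. A window deeper in the gene (chr12:86469117-86471116), not assigned to a RefSeq start, was at 0.581%, 0% and 0%.

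Tfcp2l1, a Grainyhead-like factor downstream of LIF signalling, had its lowest level in 2-month WT, opposite to Pou5f1. Its window (chr1:118626946-118628945) was at 0% (122 calls) in 2-month WT, which allows up to 2.46%, 1.85% (271 calls) in 11-month WT and 2.0% (100 calls) in Tet2KO. The differences were 1.85 points (-1.38 to 4.25) and 2.0 points (-1.38 to 7.0), within counting error. Further windows inside the gene were methylated in all pools. The one 10459 bp downstream was at 100% in each pool, from 13, 19 and 10 calls. The one 53875 bp downstream, at a pseudogene, was at 100% (44 calls), 100% (33 calls) and 88.2% (17 calls).

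Prdm14, a PR-domain protein of naive cells and primordial germ cells, stayed low in every pool. Its window (chr1:13126164-13128163) was at 0.427% (234 calls) in 2-month WT, 1.55% (386 calls) in 11-month WT and 1.33% (150 calls) in Tet2KO. Its differences from 2-month WT were 1.13 points (-0.999 to 2.96) and 0.906 points (-1.27 to 4.32). Neither exceeded counting error.

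Lin28a encodes an RNA-binding protein that blocks the maturation of let-7 microRNAs. Its window (chr4:134017842-134019841) was at 1.58% (253 calls) in 2-month WT, 2.21% (498 calls) in 11-month WT and 3.51% (114 calls) in Tet2KO. These call shares did not differ beyond counting error, with differences of 0.628 points for age (-1.97 to 2.58) and 1.93 points for Tet2KO (-1.29 to 7.18). The deposited fraction was 1.43%, 9.47% and 7.0% in the same order, so by position the 2-month WT pool was the low one, by 8.04 and 5.57 points. At 11 months at least 7 and at most 11 of 72 positions carried a methylated call, against 1 to 4 of 63 in 2-month WT and 4 of 50 in Tet2KO.

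An overlapping window inside Lin28a places these calls. That window (centred 695 bp further into the gene) held 0, 5 and 1 methylated calls in 2-month WT, 11-month WT and Tet2KO. At least 4 of 4, 6 of 11 and 3 of 4 methylated calls of the promoter window therefore lay in the 695 bases it does not share, chr4:134019147-134019841, on the upstream side of the start. The window inside the gene was at 0%, 0.956% and 0.714%.

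Counted over the 13 windows, few passed a threshold. For age 1 window, Pou5f1, was lower by 20 points or more, beside 2.76% of all shared windows, and 0 were higher, beside 2.78%. For Tet2KO 1 window, again Pou5f1, was lower, beside 3.22% of all, and 0 were higher, beside 3.29%. Between Tet2KO and 11-month WT 0 windows were 20 points lower and 0 higher, beside 1.94% and 2.09%. Medians of the 13 differences were 0.088 points for age, 0 for Tet2KO and -0.221 for Tet2KO against 11-month WT, beside 0, -0.241 and -0.394 over all shared windows. The Nanog windows overlap one another, as do those of Sall4, so the 13 are not separate units. With 1 window per gene the medians were 0.088, -1.28 and -0.221 points.

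The interval of the difference from 2-month WT lay wholly below 0 at 3 windows in each comparison, those of Pou5f1, Klf4 and Klf2. Over all shared windows this held for 16.3% in the age comparison and 13.2% in the Tet2KO comparison. It lay wholly above 0 at 0 of the 13, beside 10% and 7.58% of all windows. Between Tet2KO and 11-month WT no interval excluded 0, beside 7.77% of all windows with a higher and 7.88% with a lower level in Tet2KO. Differences of the 13 windows ran from -28.5 to 1.85 points for age, from -30 to 2.0 for Tet2KO and from -2.42 to 1.30 between Tet2KO and 11-month WT.

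**Figure D3:**
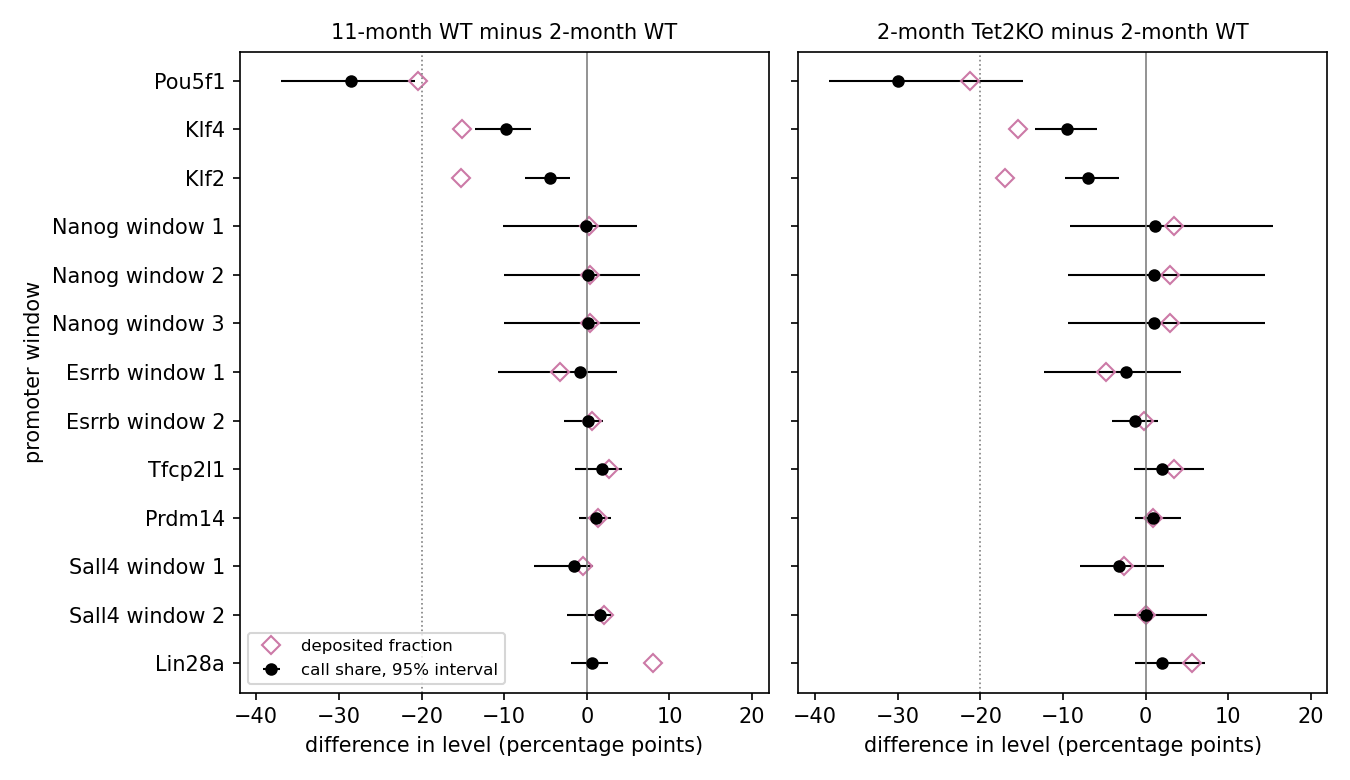
Difference in level from 2-month WT (x axis, percentage points) at the 13 promoter windows (y axis), for 11-month WT on the left and Tet2KO on the right; black circles are call shares with Newcombe 95% intervals of counting error, open diamonds are deposited fractions, and the dotted line marks -20 points. Pou5f1 lies beyond -20 points in each panel (-28.5 and -30), Klf4 and Klf2 lie between -4.51 and -9.75 by call share, and the other intervals include 0.

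The members differ in CpG coverage, and so do promoters at large. Klf4, Klf2, Sall4 and the internal Esrrb window belong to the 14804 windows with 80 or more covered CpG positions in at least 1 pool. In that class the mean level was 5.21% in the 2-month WT pool, 3.96% in the 11-month WT pool and 3.67% in Tet2KO, and 53.5% of windows were lower at 11 months and 63.0% lower in Tet2KO. A difference as low as that of Klf4 was found at 5.86% of this class for age and at 6.71% for Tet2KO, and one as low as that of Klf2 at 14.9% and 10.4%. Pou5f1 belongs to the 14440 windows with at most 79 positions and at least 30 in the pool with the widest coverage, of which 1.34% for age and 1.45% for Tet2KO differed as much or more in the same direction. By call share, Klf4 and Klf2 thus ranked nearer to the bulk of promoters of like coverage than Pou5f1 did. Ranks by the deposited fraction were not computed within these classes.

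Promoters near 0 in the other pools gave a second frame for the 2-month WT values. In all, 23135 windows, 57.1% of those shared, were under 5% in 11-month WT and in Tet2KO, and all 13 members were among them. The median 2-month WT level of these windows was 1.64%, and 81.7% of them were under 5% there too. A level as high as that of Pou5f1 was reached by 177 of them (0.765%), as that of Klf4 by 5.90% and as that of Klf2 by 10.9%. By the deposited fraction the shares were 1.72%, 3.31% and 2.93%, so that the 3 genes stood at similar ranks on that scale. The other 10 windows lay between 0% and 3.23%.

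**Figure D4:**
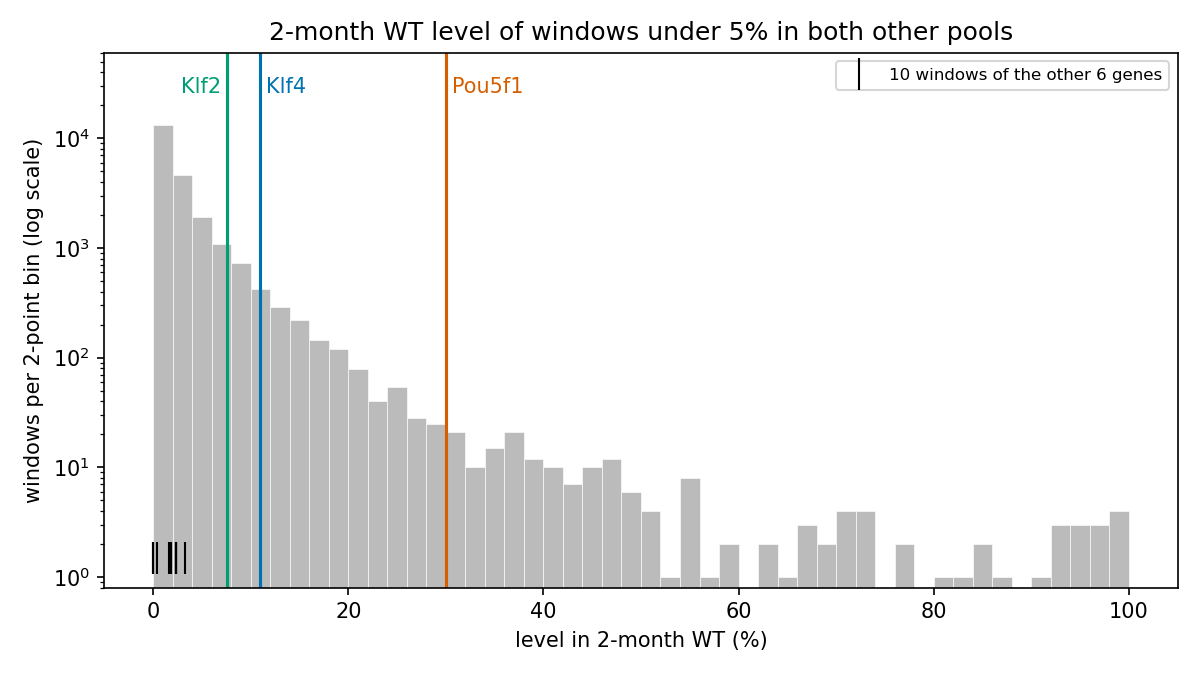
Number of windows per 2-point bin (y axis, log scale) by level in 2-month WT (x axis, %) among the 23135 windows under 5% in both other pools; coloured lines mark Klf2 (7.59%), Klf4 (10.9%) and Pou5f1 (30%) and black ticks the 10 windows of the other 6 genes. The ticks lie between 0% and 3.23%, and 177 windows lie at or beyond Pou5f1.

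Pou5f1 was the only one of the 13 windows whose levels spanned 20 points or more over the pools. The 5 windows of other genes nearest to it in distance over the 3 pool levels, among 25621 named windows with at least 20 calls in each pool, were those of Spaca1, Gm14173, Scand1, H2-Q4 and Cnppd1. Spaca1, a membrane protein of the sperm acrosome, was at 30.8% in the 2-month WT pool, 1.46% in the 11-month WT pool and 0% in Tet2KO, 0.769 points away from Pou5f1. H2-Q4, a histocompatibility gene on the same chromosome (chr17:35378617-35380616), was at 28.9%, 1.19% and 0.427%. Gm14173, Scand1 and Cnppd1 were at 29.2% to 29.3% in 2-month WT and at 0% to 1.44% in the other pools. The likeness rests on 3 values per window.

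Other genes of the pluripotency network were taken from a list of 60, of which 50 had a window in all 3 pools, 1 window being used per gene. In 2-month WT 38 of the 50 were under 5%, and in 11-month WT and in Tet2KO 46 were. Lin28b, the paralogue of Lin28a, was the only one over 80%, at 100% (17 calls), 96.7% (30 calls) and 97.0% (33 calls). Lin28a and Lin28b thus had opposite promoter states in all 3 pools. Sox2, the partner of Pou5f1, had no shared window.

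For age 1 of the 50 genes was lower by 20 points or more, beside 2.76% of all shared windows, and 0 were higher, beside 2.78%. By any amount 33 were lower, 15 higher and 2 equal. Over all shared windows 47.7% were lower and 48.2% higher. The median of the 50 was -0.983 points, beside 0 over all shared windows. For Tet2KO 1 was lower by 20 points or more, beside 3.22% of all shared windows, and 0 were higher, beside 3.29%. By any amount 34 were lower, 13 higher and 3 equal, while 52.6% of all shared windows were lower and 38.6% higher. The median was -1.30 beside -0.241. Between Tet2KO and 11-month WT 0 passed 20 points, beside 1.94% of all shared windows lower and 2.09% higher. The median there was -0.204 beside -0.394. The gene past 20 points was Id1 in each comparison with 2-month WT. Id1, an inhibitor of differentiation induced by BMP signals, was at 36.3% (289 calls) in 2-month WT, 9.63% (322 calls) in 11-month WT and 12.2% (82 calls) in Tet2KO. Its differences were -26.7 points for age (-33.0 to -20.2) and -24.1 for Tet2KO (-32.0 to -13.8). By the deposited fraction they were -20.6 and -17.7 points, so for Tet2KO Id1 fell short of 20 points on that scale.

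Tet2 itself had the next largest Tet2KO difference, -11.2 points (-16.6 to -6.51), and differed by -6.90 points for age. Myc, a factor that drives growth and proliferation, was at 9.31% (290 calls) in 2-month WT, 0% (471 calls) in 11-month WT (up to 0.637%) and 1.68% (179 calls) in Tet2KO. Zfp281, a zinc-finger partner of the core factors, was at 19.7%, 10.8% and 10.3%. Nr0b1 (Dax1), an orphan receptor of the naive network, was at 8.92%, 1.33% and 2.94%. Their age differences were -9.31, -8.93 and -7.59 points, with intervals below 0. Klf5, the third Krüppel-like factor of naive cells, was at 8.01% (599 calls), 0.499% (802 calls) and 1.85% (379 calls), and so had its highest level in 2-month WT as Klf2 and Klf4 did.

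Grouped by role, the list was low in most places. These counts stand beside the 47.7% of all shared windows that were lower for age and the 52.6% that were lower for Tet2KO. Of 15 signalling genes, among them Stat3, Lifr, Fgf4 and Bmp4, 12 were lower and 3 higher for age, with a median of -1.04 points, and 11 lower and 4 higher for Tet2KO (-1.83). Of 23 further pluripotency factors and markers 12 were lower, 10 higher and 1 equal for age (-0.941). For Tet2KO 17 of them were lower, 3 higher and 3 equal (-1.33). Of 4 chromatin genes, Jarid2, Rif1, Mbd3 and Tet2, 4 were lower for age (-1.81), and 3 were lower and 1 higher for Tet2KO (-2.05). The 5 lineage factors Sox17, Gata6, Cdx2, Eomes and Tead4 had medians of -0.102 for age and 0.717 for Tet2KO. Between Tet2KO and 11-month WT the largest differences of the list were -4.26 points at Tet2, -2.99 at Tcl1, 2.57 at Id1 and 2.51 at Sox17.

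**Figure D5:**
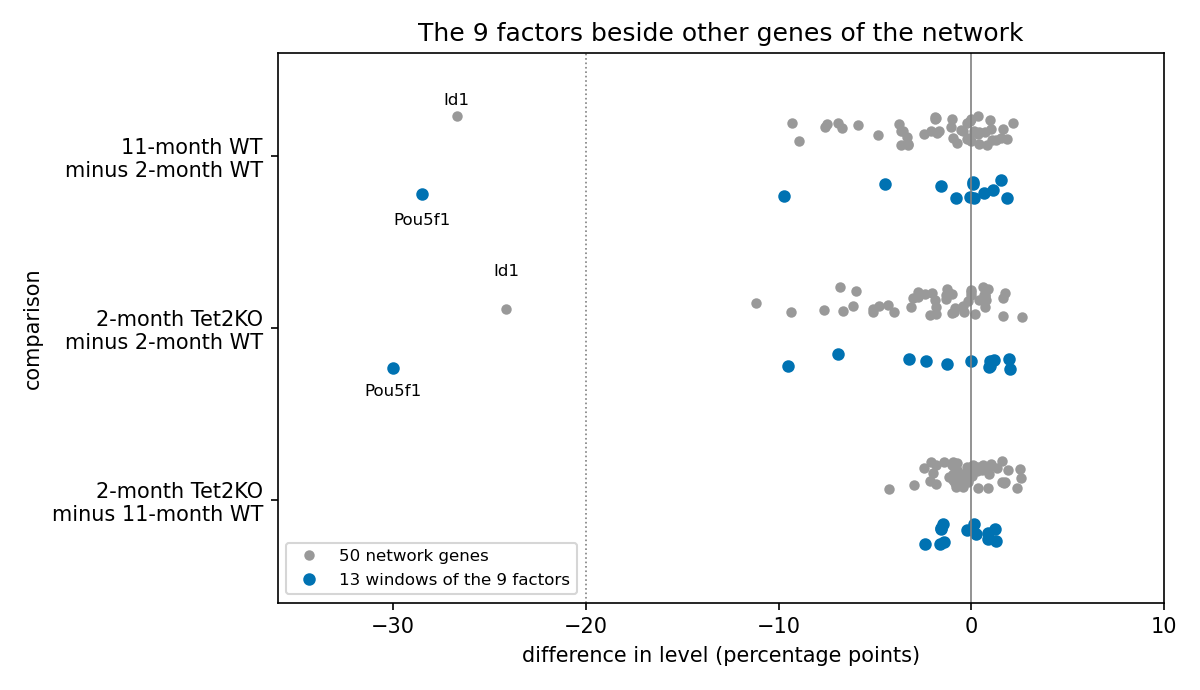
Difference in level (x axis, percentage points) in the 3 comparisons (y axis) for 50 other genes of the network (grey, 1 window each) and for the 13 windows of the 9 factors (blue), with points spread vertically for legibility and a dotted line at -20 points. Id1 (-26.7 and -24.1) and Pou5f1 (-28.5 and -30) lie beyond -20 points in the comparisons with 2-month WT, and no gene does so between Tet2KO and 11-month WT.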

How the data were processed

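DNA methylation was measured in 10 libraries of MII oocytes. Per the submitters' processing notes the tools were Trimmomatic and Bismark (version field 12.5) and the build was mm10; the sources used here give neither their order nor their settings. The authors' tables hold 1 pooled row per promoter window and group: the deposited counts of methylated CpG calls, the deposited coverage (all CpG calls), the deposited fraction (mean methylated share over covered CpG positions) and the number of covered positions. The smallest values in the tables are 10 calls and 5 positions per window. More calls give narrower intervals.

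Levels, Wilson and Newcombe 95% intervals and counts past 20 points were computed with Python 3.11.15, numpy 2.4.6 and pandas 2.3.3, and tested on simulated data. The design foresaw a logistic model for values per library and no test for pooled values; the latter applied. A count of 0 was given an upper limit of 3 calls over all calls. Starts came from RefSeq (GRCm38.p6): transcript starts or, for genes without a promoter entry (among the members Prdm14 and Sall4), either end of the gene, since the gene table gives no strand.

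Members, lists and tests were chosen with earlier results of these data known. Named genes were all 9 members, the 4 genes of the network list with the largest absolute difference and at least 20 calls per comparison, the 5 windows nearest in level to a member spanning 20 points, and genes within 5000 bp. Klf5, Lin28b, Gdf3, Dppa3 and the list examples were named after their values were seen, as were the frames by covered positions and by level under 5%. Alternatives were the deposited fraction, centres within 50 or 500 bp, at least 50 calls, at most 5 calls per position, 1 window or summed calls per gene, a threshold of 10 points, and intervals that exclude 0.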

Additional observations from a re-analysis of the deposited data

How the results depend on the processing

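Counts past 20 points and medians of the 13 windows were recomputed under each alternative. Of 75 values, 72 stayed within 1.5 times the count, or within the counting interval of the median window without a reversal of sign. The counts that were 0 at the main setting stayed 0 under every alternative, and these are among the 72. The Tet2KO count of windows lower by 20 points went from 1 to 0 with at least 50 calls in both pools, because Pou5f1 had 25 calls in Tet2KO and was left out. The median age difference turned from 0.088 to -0.024 points with calls summed per gene, and the median between Tet2KO and 11-month WT from -0.221 to 0.51 points without windows over 5 calls per position; these medians are close to 0 and the cause of the change was not tested. The median Tet2KO difference from 2-month WT, 0, has no direction, and went from -1.50 to 0.453 points over the alternatives. For single windows, the deposited fraction gave a difference outside the counting interval at 4 of 13 for age (Pou5f1, Klf4, Klf2, Lin28a), 2 for Tet2KO (Klf4, Klf2) and 1 between Tet2KO and 11-month WT (Lin28a). No window past 20 points changed sign. No paired analysis was possible because the tables hold pooled values with no replicate, and for the same reason no library could be left out. Depth limits Nanog, Pou5f1, the second Sall4 window and the upstream Esrrb window most, with 25 to 57 calls in Tet2KO.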
